A study of Mus musculus with 11 samples.

Results

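The 10 genes described here are the mRNAs of the machinery that takes a cell through G1. They were picked by symbol and role from the 24062 genes of the count files, with earlier results of these data known and no threshold on their values. They are the D-type cyclins *Ccnd1*, *Ccnd2* and *Ccnd3*, the E-type cyclins *Ccne1* and *Ccne2*, the kinases *Cdk2*, *Cdk4* and *Cdk6*, the phosphatase *Cdc25a* and the transcription factor *Myc*. All 10 were found once in each file and all 10 passed the filter on low values. They were measured by RNA-seq in 11 libraries of primary mesenchymal cells from mouse lungs of embryonic day 15, which had attached to culture plastic and been passaged before lysis. There were 4 WT, 4 Sp3+/- and 3 Sp3-/- libraries, and no treatment is given for any group. Sp3-/- cells lack both copies of *Sp3*, whose protein binds GC-rich promoters and can raise or lower transcription. Strain, sex and the structure of the *Sp3* allele are not given in the sources used here. Nothing says whether each library is a separate animal or culture, so p-values measure the spread between these libraries. The study named *Cdc25a*, *Myc*, *Ccne1*, *Ccnd2* and *Ccnd3* on these same libraries, so their direction here is not independent evidence. In other samples, Sp3-/- fetal livers and conditionally immortalized Sp3-/- mesenchymal cells, the study also found less cyclin E protein by immunoblot.

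In G1, mitogens raise the D-type cyclins, which activate Cdk4 and Cdk6. These kinases phosphorylate the retinoblastoma protein and release E2F factors, which transcribe the E-type cyclins and the genes of DNA replication. Cyclin E then activates Cdk2, Cdc25a removes inhibitory phosphates from Cdk2, and Myc raises genes of ribosome production and growth. In the fetal lung, division of mesenchymal cells accompanies branching and growth of the airways.

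Between 9849111 and 59297495 reads were counted on genes per library, with a median of 34968482, and the smallest library was Sp3-/- 697-5. *Sp3* measured 6.38 ± 0.35 log2 CPM (reads per 1000000 reads on genes, SD, n = 4) in WT and 4.1 ± 0.18 (n = 3) in Sp3-/- libraries. All Sp3-/- libraries lay below all others. Library titles end in 2, in 3 or in no suffix, and no source explains the suffix. All 3 Sp3-/- libraries have none, as have WT 468-4 and Sp3+/- 697-4. For Sp3+/- 697-4 the sources disagree, since its title has no suffix and the name of its count file has suffix 2. The title was used, and the suffix fits of the 10 genes are also given with suffix 2. Genotype and suffix were thus nearly confounded. Mesenchyme markers were abundant in all groups, with 12 genes summing to 13200 to 22200 CPM in WT and 7270 to 18900 in Sp3-/- libraries. In Sp3-/- against WT cells 5 of the 12 were called lower and none higher. The 9 macrophage markers analysed summed to 2950 to 10900 CPM in the 5 libraries without a suffix and 356 to 861 in the other 6. By genotype they summed to 587 to 3130 CPM in WT, 356 to 2950 in Sp3+/- and 2990 to 10900 in Sp3-/- libraries. In Sp3-/- cells 4 of the 9 were called higher against WT and 9 against Sp3+/-, and none lower. With the suffix in the fit none was called against WT, and their median log2 fold change was 1.07. The 10 mesothelial markers summed to 796 to 1900 CPM in WT and 2320 to 6710 in Sp3-/- libraries. Epithelial markers were low, at 25.2 to 50.6 CPM for 10 genes in WT and 54.4 to 179 in Sp3-/- libraries. In Sp3-/- 685-1 the keratins *Krt18*, *Krt8* and *Krt19* gave 103, 40 and 26.5 CPM of the sum. Of 8 epithelial markers tested in Sp3-/- against WT cells, 5 were higher, with *Cdh1*, *Epcam* and *Krt18* called. The other 3, *Sftpc*, *Nkx2-1* and *Sox2*, were lower and not called. Endothelial markers summed to 42.2 to 121 CPM in WT and 103 to 136 in Sp3-/- libraries, and erythroid markers to at most 16.7 in any library. Of the 10 endothelial markers 5 were lower and 5 higher, with *Erg* called lower (log2 fold change -3.3) and *Vwf* called higher (2.22). In bulk RNA, fewer cells of a type and less RNA per cell cannot be told apart. The part of these other cells in the results on the G1 genes was not tested.

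Promoters of the cyclins and kinases are shown first because the Sp3 protein binds GC boxes. RefSeq promoters of GRCm38.p6, from 250 bases before to 50 bases after the start of each entry, were matched for 6 of the 10 genes. *Ccnd3* had a pair of entries. The start of the entry differed from the gene start for the second *Ccnd3* window, which lies inside the gene, and for *Cdc25a* and *Cdk6*. *Ccnd1*, *Ccnd2*, *Ccne2* and *Myc* were not matched. Capitals mark the core of the GC box (GGGCGG), the E-box that Myc binds (CACGTG) and an E2F site (TTTNNCGC), each on either strand. The core, the E-box and the E2F site occur in 35.7%, 7.15% and 5.17% of 32851 promoters of the same length. The whole GC box (GGGGCGGGG), which overlaps the core, occurs in 11.4%. The first 4 sequences belong to genes that were lower in every Sp3-/- library, and the fifth to a gene that was not.
Ccne1, chr7:38107441-38107740, minus strand: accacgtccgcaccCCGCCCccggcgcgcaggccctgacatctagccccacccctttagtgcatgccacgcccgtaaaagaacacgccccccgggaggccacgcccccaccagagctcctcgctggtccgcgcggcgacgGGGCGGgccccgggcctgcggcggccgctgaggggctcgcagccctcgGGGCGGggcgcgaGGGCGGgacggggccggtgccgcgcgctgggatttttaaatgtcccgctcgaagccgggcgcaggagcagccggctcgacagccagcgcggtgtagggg
Ccnd3, chr17:47504801-47505100, plus strand: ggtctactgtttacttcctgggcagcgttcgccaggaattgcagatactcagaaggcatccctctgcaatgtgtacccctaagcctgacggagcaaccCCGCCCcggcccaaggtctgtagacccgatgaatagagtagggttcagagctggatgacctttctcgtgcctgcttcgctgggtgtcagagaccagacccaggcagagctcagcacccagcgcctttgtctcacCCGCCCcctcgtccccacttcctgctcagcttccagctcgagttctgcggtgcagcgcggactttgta
Ccnd3, chr17:47593217-47593516, plus strand: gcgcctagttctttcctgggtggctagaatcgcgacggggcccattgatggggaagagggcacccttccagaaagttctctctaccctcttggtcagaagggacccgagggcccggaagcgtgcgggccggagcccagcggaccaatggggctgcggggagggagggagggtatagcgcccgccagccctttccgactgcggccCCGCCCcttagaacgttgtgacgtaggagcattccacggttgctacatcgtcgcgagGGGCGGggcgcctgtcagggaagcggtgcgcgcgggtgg
Cdc25a, chr9:109875329-109875628, plus strand: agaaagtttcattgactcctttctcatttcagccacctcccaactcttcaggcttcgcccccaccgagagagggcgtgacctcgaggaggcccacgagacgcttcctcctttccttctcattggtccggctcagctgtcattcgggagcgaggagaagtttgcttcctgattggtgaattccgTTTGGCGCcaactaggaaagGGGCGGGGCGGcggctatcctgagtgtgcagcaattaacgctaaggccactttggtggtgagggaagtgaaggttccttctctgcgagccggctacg
Cdk2, chr10:128705002-128705301, minus strand: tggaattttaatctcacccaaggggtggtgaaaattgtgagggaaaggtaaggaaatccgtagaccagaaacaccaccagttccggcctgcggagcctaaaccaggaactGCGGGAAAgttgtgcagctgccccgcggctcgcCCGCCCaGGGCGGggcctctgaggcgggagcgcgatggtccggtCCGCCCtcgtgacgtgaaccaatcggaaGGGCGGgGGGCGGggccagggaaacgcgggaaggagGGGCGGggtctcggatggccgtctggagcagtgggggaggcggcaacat

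*Ccne1* had 4 GC box cores within a window of 76% GC, and its whole GC boxes began 238 and 63 bases before the gene start. Both *Ccnd3* windows held 2 cores, and the *Cdc25a* window held 2 cores beside 1 E2F site. *Cdk2* had the most cores, 6, with 1 E2F site. *Cdk4* had 3 cores and 4 E-boxes, and *Cdk6* had no core, 1 E-box and 1 E2F site. *Cdk2*, whose libraries overlapped between Sp3-/- and WT, thus had more cores than *Ccne1*, *Ccnd3* and *Cdc25a*, which were lower in every Sp3-/- library. *Ccnd2* and *Myc*, also lower in every Sp3-/- library, had no matched promoter. The part of GC boxes in the changes was not tested. A match is a run of letters and not a site shown to be bound.

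Levels between genes were compared as CPM per kb of the canonical transcript. *Ccnd2* was the leading cyclin, with a mean of 179 CPM per kb and a range of 156 to 199 in WT cells. *Cdk4*, its kinase partner, followed with 154 (123 to 173), and these ranges overlapped. *Ccnd1* at 70.9 (50.9 to 89.6) and *Ccnd3* at 55.3 (50.6 to 57.6) came next and also overlapped. The next tier held *Cdk2* at 13.3, *Ccne1* at 12.9 and *Myc* at 12.2 CPM per kb, with overlapping ranges. *Cdc25a* at 6.89, *Cdk6* at 2.24 (2 to 2.64) and *Ccne2* at 0.823 (0.432 to 1.07) were lower, each without overlap with its neighbours. The cells thus carried mainly the mRNAs of cyclin D2 and Cdk4 for the first step of G1, and mainly that of cyclin E1 for the second. In Sp3-/- cells *Cdk4* at 125 CPM per kb (104 to 144) and *Ccnd2* at 115 (106 to 122) overlapped with their order exchanged. *Ccne1* at 5.64 (5.23 to 6.41) lay below *Cdk2* at 11.9 (11 to 12.6) with no overlap, which was not so in WT cells. *Ccne1* was also below *Cdk2* in the other libraries without a suffix, WT 468-4 (7.77 against 10.2) and Sp3+/- 697-4 (9.27 against 10). Libraries with a suffix went either way, as in WT 685-2 (15.4 against 15.7) and WT 697-3 (14 against 12.9). Strand use in counting is not stated and the exons of 9 of the 10 genes, all but *Cdc25a*, overlap a gene on the opposite strand in GENCODE vM39. The overlap was 48.4% of exon length for *Ccnd1* with LTO1, 18.8% for *Cdk4* with *Tspan31* and 15.2% for *Ccne2* with *Ints8*. Reads from these stretches cannot be assigned with certainty, and the other overlaps were at most 7.97% for a gene pair.

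**Figure D1:**
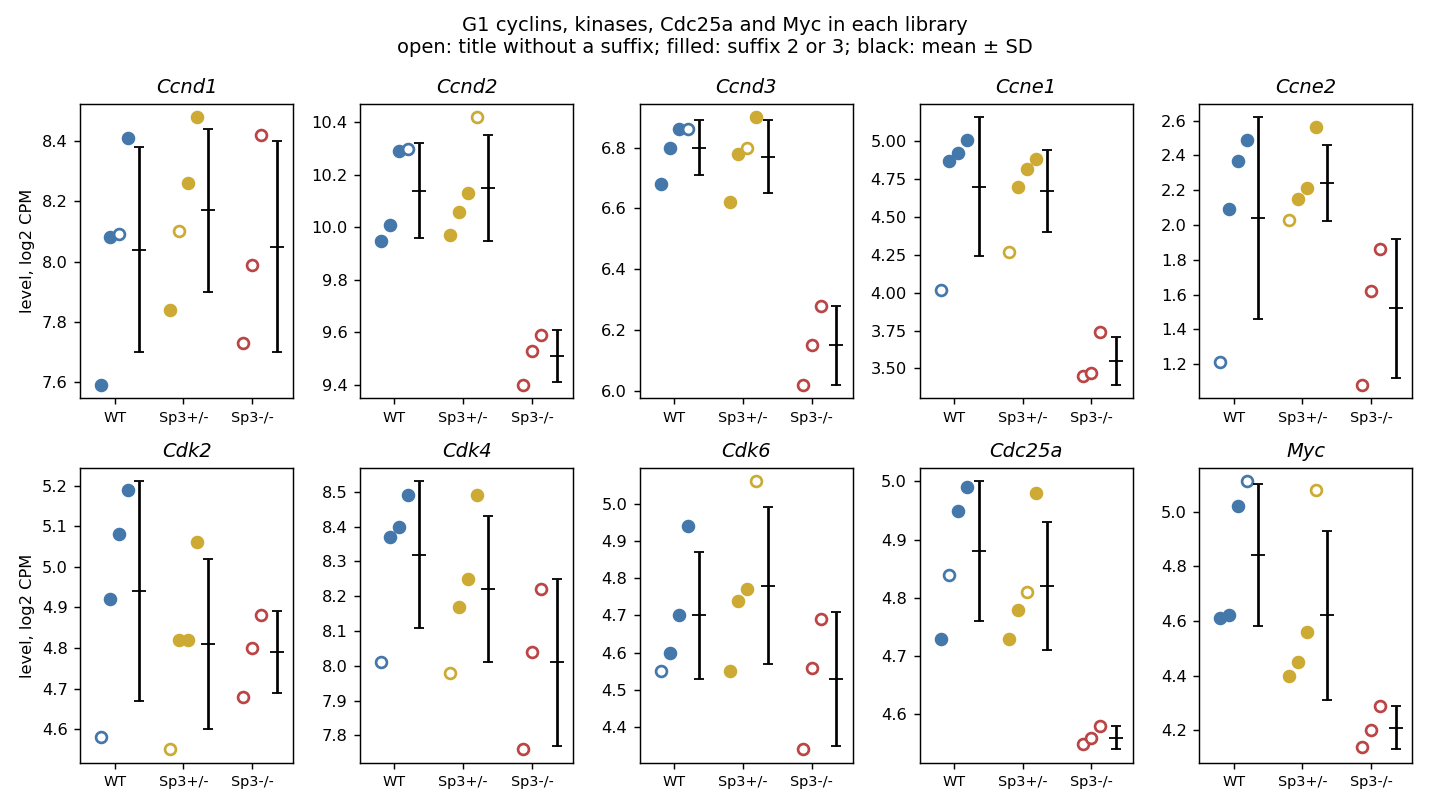
Level of each gene as log2 CPM (y axis, scaled for each gene) in WT, Sp3+/- and Sp3-/- libraries (x axis). Each circle is a library, open where its title has no suffix, and black bars are the mean ± SD. The Sp3-/- circles lie below all others for Ccnd2, Ccnd3, Ccne1, Cdc25a and Myc, whereas the open WT circle is lowest in its group for Ccne1, Ccne2, Cdk2, Cdk4 and Cdk6.

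The comparison of Sp3-/- with WT cells asks which G1 genes differ in cells without either copy of *Sp3*. Among the D-type cyclins, *Ccnd2* and *Ccnd3* fell by about the same amount and *Ccnd1* did not differ detectably. *Ccnd2* (chr6:127125162-127152188), the most abundant of them, measured 10.3, 10.01, 9.95 and 10.29 log2 CPM in WT libraries 468-4, 685-2, 697-1 and 697-3. It measured 9.59, 9.4 and 9.53 in Sp3-/- libraries 685-1, 697-2 and 697-5. All 3 Sp3-/- values lay below all 4 WT values, and the log2 fold change was -0.63 (SE 0.13, adjusted p = 0.0235), a level 1.55-fold lower. *Ccnd3* (chr17:47505051-47599689) measured 6.86, 6.86, 6.68 and 6.8 log2 CPM in the same WT libraries and 6.15, 6.02 and 6.28 in the Sp3-/- libraries. The groups again did not overlap, and *Ccnd3* fell 1.56-fold (log2 fold change -0.64, SE 0.09, adjusted p = 0.0104), with the smallest standard error of the 10 genes. *Ccnd1* (chr7:144929931-144939831) spread widely within each genotype, at 8.09, 8.41, 8.08 and 7.59 log2 CPM in WT and 7.73, 7.99 and 8.42 in Sp3-/- libraries. Its log2 fold change was 0.01, and the 95% confidence interval of -0.52 to 0.54 did not reach the log2 fold changes of *Ccnd2* and *Ccnd3*. It did overlap with their intervals, -0.94 to -0.32 for *Ccnd2* and -0.86 to -0.43 for *Ccnd3*. A difference between the genes was not tested.

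*Ccne1*, the E-type cyclin that rises before DNA replication, had the largest change of the 10 genes. *Ccne1* (chr7:38097984-38107490) measured 4.02, 5.01, 4.92 and 4.87 log2 CPM in WT libraries 468-4, 685-2, 697-1 and 697-3, and 3.47, 3.74 and 3.45 in Sp3-/- libraries 685-1, 697-2 and 697-5. WT 468-4, the only WT library without a suffix, lay 0.859 of the group's range below the other WT libraries and still above every Sp3-/- library. The level was 2.27-fold lower in Sp3-/- cells (log2 fold change -1.18, SE 0.25, adjusted p = 0.0235). *Ccne2* (chr4:11190433-11204779), its paralog, measured 1.21, 2.37, 2.49 and 2.09 log2 CPM in WT and 1.62, 1.86 and 1.08 in Sp3-/- libraries. These groups overlapped through WT 468-4, and the test did not call *Ccne2* (-0.54, 95% confidence interval -1.38 to 0.3, adjusted p = 0.3085). The interval of *Ccne2* included the log2 fold change of *Ccne1*, so a change of that size was not excluded. Counts of *Ccne2* were few, from 20 reads in Sp3-/- 697-5 to 161 in Sp3-/- 697-2 in that genotype. WT libraries also spread, with an SD of 0.58 log2 CPM, and the part of either in the wide interval was not tested.

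The kinases did not differ detectably between Sp3-/- and WT cells. *Cdk2* (chr10:128697938-128705051), the partner of the E-type cyclins, measured 4.58, 5.19, 5.08 and 4.92 log2 CPM in WT and 4.8, 4.88 and 4.68 in Sp3-/- libraries. The Sp3-/- values all lay inside the WT range, with a log2 fold change of -0.16 (95% confidence interval -0.52 to 0.2). *Cdk4* (chr10:127063535-127067288), the main partner of the D-type cyclins here, measured 8.01, 8.49, 8.37 and 8.4 log2 CPM in WT and 8.22, 8.04 and 7.76 in Sp3-/- libraries. Its log2 fold change of -0.3 (95% confidence interval -0.67 to 0.06, adjusted p = 0.1981) left the groups overlapping. *Cdk6* (chr5:3341004-3531008) measured 4.55, 4.6, 4.7 and 4.94 log2 CPM in WT and 4.69, 4.56 and 4.34 in Sp3-/- libraries, with a log2 fold change of -0.16 (95% confidence interval -0.48 to 0.16).

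*Cdc25a*, the phosphatase, and *Myc* were lower in every Sp3-/- library, and *Myc* passed the test. *Cdc25a* (chr9:109875518-109893895) measured 4.84, 4.95, 4.73 and 4.99 log2 CPM in WT and 4.56, 4.55 and 4.58 in Sp3-/- libraries. The Sp3-/- values were nearly equal to each other, and the log2 fold change of -0.31 (SE 0.1) missed the threshold at an adjusted p of 0.0593. *Myc* (chr15:61985341-61990361) measured 5.11, 4.62, 4.61 and 5.02 log2 CPM in WT libraries 468-4, 685-2, 697-1 and 697-3 and 4.2, 4.29 and 4.14 in the Sp3-/- libraries. WT 468-4, where *Ccne1* was lowest, was the WT library with the most *Myc*. *Myc* fell 1.56-fold (log2 fold change -0.64, SE 0.15, adjusted p = 0.0317).

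Thus 4 of the 10 genes were called lower in Sp3-/- cells and none higher, while 9.77% of all 14025 genes tested were called lower, 8.76% higher and 18.5% in either direction. With upper quartile scaling the calls over all genes were 1671 lower and 983 higher in place of 1370 and 1229, and *Cdc25a* was called too. The libraries did not overlap for 5 of the 10, all lower, while 16.7% of all genes were lower without overlap. That share leaves out genes that were higher without overlap. The median log2 fold change of the 10 genes was -0.43, and that of all genes tested was 0. The 4 calls kept their direction whenever a library was left out, with log2 fold changes of -0.69 to -0.58 for *Ccnd2*, -0.71 to -0.59 for *Ccnd3*, -1.36 to -1.1 for *Ccne1* and -0.72 to -0.55 for *Myc*. Their significance depended on single libraries. Without Sp3-/- 697-2 none of the 4 was called by edgeR, with adjusted p = 0.0525 for *Ccnd3*, 0.0682 for *Ccne1*, 0.093 for *Myc* and 0.103 for *Ccnd2*, and 5 of the 10 genes had an unadjusted p below 0.05. *Ccnd3* was the only one called without WT 697-3 or without Sp3-/- 697-5. Without WT 685-2, *Ccnd3* and *Myc* were called, and without WT 697-1, *Ccnd2* and *Ccnd3*. Without Sp3-/- 685-1, *Myc* was lost (adjusted p = 0.0616), and without WT 468-4 all 4 were called.

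**Figure D2:**
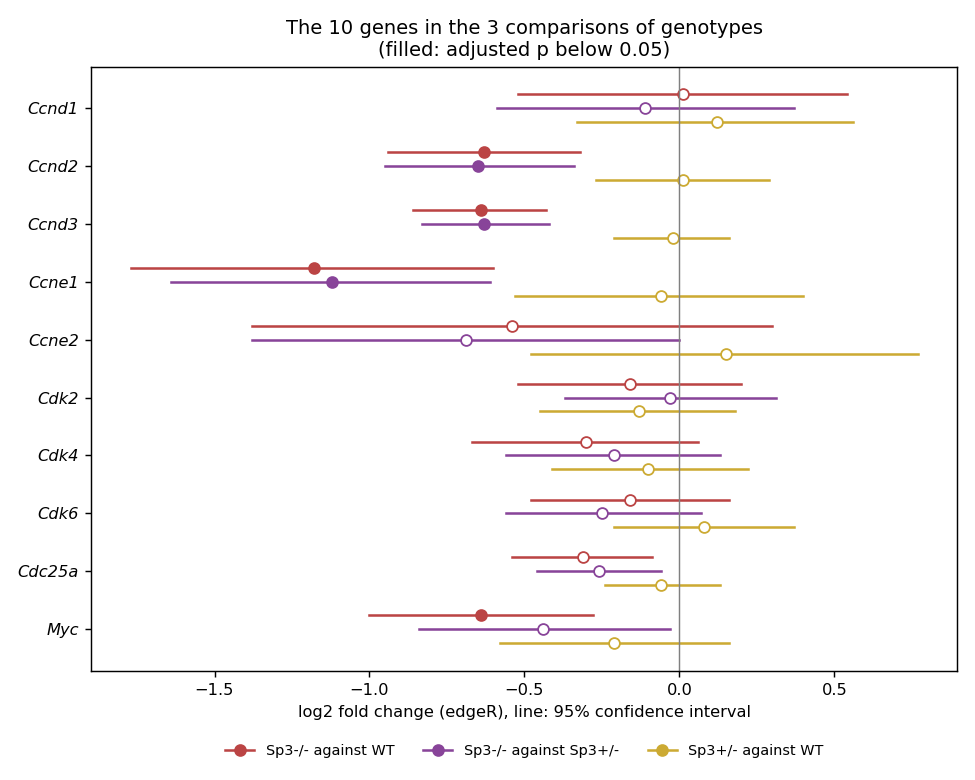
Log2 fold change (x axis) of each gene (y axis) with its 95% confidence interval from edgeR for Sp3-/- against WT (red), Sp3-/- against Sp3+/- (purple) and Sp3+/- against WT (yellow), filled where the adjusted p was below 0.05. Ccnd2, Ccnd3 and Ccne1 are filled and left of 0 in both comparisons with Sp3-/- libraries, and no gene is filled in Sp3+/- against WT.

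Loss of 1 copy of *Sp3* was not accompanied by a detectable change in any of the 10 genes. For *Sp3* itself the comparison of Sp3+/- with WT gave a log2 fold change of -0.49 (SE 0.16, unadjusted p = 0.0131, adjusted p = 0.9999). *Ccnd2* measured 10.06, 10.13, 9.97 and 10.42 log2 CPM in Sp3+/- libraries 468-3, 685-5, 685-7 and 697-4, and *Ccnd3* 6.9, 6.78, 6.62 and 6.8. Both genes overlapped with WT cells, although *Ccnd2* in Sp3+/- 697-4 lay above the WT range, and *Ccnd3* lay above it in Sp3+/- 468-3 and below it in Sp3+/- 685-7. *Ccne1* measured 4.88, 4.7, 4.82 and 4.27 log2 CPM in the same order, and *Myc* 4.4, 4.45, 4.56 and 5.08. Sp3+/- 697-4, the library without a suffix, had the least *Ccne1* and the most *Myc* of its group, as had WT 468-4 in the WT group. The 95% confidence intervals of the log2 fold change against WT were -0.27 to 0.29 for *Ccnd2*, -0.21 to 0.16 for *Ccnd3*, -0.53 to 0.4 for *Ccne1* and -0.58 to 0.16 for *Myc*. No gene of 14130 was called by edgeR (0%), DESeq2 or limma-voom, while 246 genes and none of the 10 had an unadjusted p below 0.05 in edgeR. All 10 overlapped between the genotypes, and 0.814% of all genes were lower and 0.602% higher without overlap.

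Sp3-/- cells were also compared with Sp3+/- cells. This comparison and that with WT share the Sp3-/- libraries, so its values are given beside the others and not as a repeat. *Ccnd2* (-0.65, SE 0.14, adjusted p = 0.0101), *Ccnd3* (-0.63, SE 0.09, adjusted p = 0.0028) and *Ccne1* (-1.12, SE 0.23, adjusted p = 0.0095) were called lower. These 3 of 10 stand beside 12.5% of all genes called lower and 25.5% called in either direction. Upper quartile scaling gave 2171 lower and 1436 higher calls over all genes in place of 1769 and 1838. *Myc* had a log2 fold change of -0.44 (SE 0.18) and was not called (adjusted p = 0.1029). *Cdc25a* (-0.26, adjusted p = 0.0566) and *Ccne2* (-0.69, adjusted p = 0.1256) were not called either. The Sp3-/- libraries lay below all Sp3+/- libraries for 6 of the 10 genes, *Ccnd2*, *Ccnd3*, *Ccne1*, *Ccne2*, *Cdc25a* and *Myc*, against 18% of all genes. *Ccne2* measured 2.15, 2.21, 2.56 and 2.03 log2 CPM in Sp3+/- libraries 468-3, 685-5, 685-7 and 697-4. *Ccnd2*, *Ccnd3* and *Ccne1* remained called when any 1 of the 11 libraries was left out, and without WT 468-4, which enters the shared spread, *Ccne2* was called as well (-0.69, adjusted p = 0.0465).

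The suffix of the titles moved with some of these genes and not with others. In a fit of all 11 libraries with genotype and suffix, *Ccne1* had a log2 fold change of -0.72 (SE 0.12, adjusted p = 0.0106) in libraries without a suffix against those with suffix 2 or 3. *Cdk2* was also called lower (-0.42, SE 0.11, adjusted p = 0.0395), and *Myc* was called higher (0.47, SE 0.12, adjusted p = 0.0372). Among all genes 4.22% were called lower and 5.38% higher by suffix. *Ccne2* (-0.69, adjusted p = 0.1297) and *Cdk4* (-0.37, adjusted p = 0.0922) were on the side of *Ccne1* without being called. *Ccnd2* (0.29, adjusted p = 0.1285), *Ccnd3* (0.06) and *Cdc25a* (-0.04) were not called. With Sp3+/- 697-4 given suffix 2, no gene was called by suffix in edgeR, while 3 of the 10 had an unadjusted p below 0.05 and no other tool was run. The log2 fold changes were then -0.91 for *Ccne1*, -0.49 for *Cdk2* and 0.34 for *Myc* (adjusted p = 0.267, 0.272 and 0.504). Mitosis genes, among them *Mki67* and *Top2a*, summed to 140 to 332 CPM in the 5 libraries without a suffix and 537 to 949 in the other 6, and all 16 of them had a negative coefficient. Their part in the level of *Ccne1*, *Ccne2*, *Cdk2* and *Cdk4* was not tested.

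With the suffix in the fit, the same 4 genes as without it were called lower in Sp3-/- against WT cells, beside 6.22% of all genes. *Ccnd2* had a log2 fold change of -0.85 (SE 0.14, adjusted p = 0.0073) and *Ccnd3* one of -0.69 (SE 0.12, adjusted p = 0.0084). *Myc* moved away from 0, from -0.64 to -0.99 (SE 0.15, adjusted p = 0.0057). *Ccne1* moved toward 0, from -1.18 to -0.6 (SE 0.15, adjusted p = 0.0292), a level 1.52-fold lower. *Ccne2* (0.04) and *Cdk2* (0.17) changed sign, neither called. This fit separates genotype from suffix only through WT 468-4 and Sp3+/- 697-4. With Sp3+/- 697-4 given suffix 2, WT 468-4 alone separates them, and only *Ccnd3* was called (-0.71, adjusted p = 0.0351). *Ccnd2* (-0.79, adjusted p = 0.0683), *Myc* (-0.89, adjusted p = 0.1) and *Ccne1* (-0.46, adjusted p = 0.299) kept their sign and lost their call. Among libraries without a suffix, the 3 Sp3-/- libraries could be set against WT 468-4 alone, with log2 fold changes of -0.8 for *Ccnd2*, -0.72 for *Ccnd3*, -0.47 for *Ccne1*, -0.9 for *Myc* and -0.28 for *Cdc25a*. No gene was called by edgeR there, where 3 of the 10 genes and 1359 of all genes had an unadjusted p below 0.05 and no other tool was run. Libraries with suffix 2 or 3 hold no Sp3-/- cells and give no value. In Sp3-/- against Sp3+/- cells with the suffix in the fit, *Ccnd2* (-0.86), *Ccnd3* (-0.67), *Ccne1* (-0.57) and *Myc* (-0.77) were called lower, with adjusted p = 0.0449 for *Ccne1* and 0.0188 for *Myc*. With Sp3+/- 697-4 given suffix 2, no gene was called in this comparison by edgeR, and 3 of the 10 and 1520 of all genes had an unadjusted p below 0.05. The values were then -0.86 for *Ccnd2*, -0.71 for *Ccnd3*, -0.21 for *Ccne1* and -0.78 for *Myc*. Against Sp3+/- 697-4 alone, within the libraries without a suffix, the values were -0.92, -0.66, -0.72 and -0.88 in that order, none called by edgeR, and 4 of the 10 genes had an unadjusted p below 0.05.

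**Figure D3:**
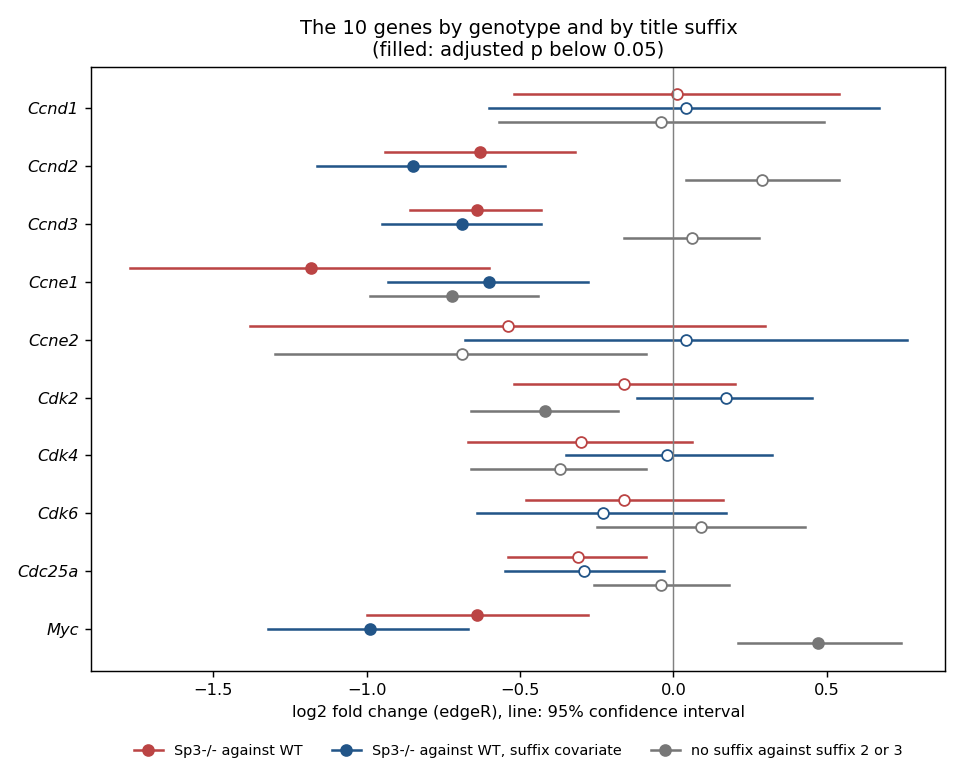
Log2 fold change (x axis) of each gene (y axis) with its 95% confidence interval from edgeR for Sp3-/- against WT (red), for the same contrast with the suffix as a covariate (blue) and for libraries without a suffix against those with one (grey), filled where the adjusted p was below 0.05. The grey intervals lie left of 0 for Ccne1, Ccne2, Cdk2 and Cdk4 and right of 0 for Ccnd2 and Myc.

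The make-up of each family was described by the share of each gene in the family's reads per kb of transcript, with no test. In WT cells *Ccnd2* gave 58.6% ± 5.39 of the D-type cyclin mRNA (SD, n = 4), *Ccnd1* 23.3% ± 5.19 and *Ccnd3* 18.1% ± 0.424. In Sp3-/- cells *Ccnd2* gave 52.2% ± 4.91 (n = 3), *Ccnd1* 31.9% ± 5.28 and *Ccnd3* 15.9% ± 0.493. In Sp3+/- cells *Ccnd2* gave 57.8% ± 4.06 (n = 4), *Ccnd1* 24.6% ± 3.5 and *Ccnd3* 17.5% ± 1.45. The share of *Ccnd3* did not overlap between WT libraries, at 17.5% to 18.5%, and Sp3-/- libraries, at 15.6% to 16.5%. Sp3+/- libraries, at 16% to 19.2%, overlapped with both. The shares of *Ccnd1* did overlap, at 16.8% to 28.9% in WT and 26.3% to 36.8% in Sp3-/- libraries. *Ccne1* gave 94.1% ± 0.714 of the E-type cyclin mRNA in WT and 91.2% ± 1.56 in Sp3-/- cells. Its ranges of 93.1% to 94.7% and 90.2% to 93% did not overlap, and Sp3+/- libraries, at 92.3% to 94.4%, overlapped with both. *Cdk4* gave 98.6% ± 0.191 of the *Cdk4* and *Cdk6* mRNA in WT and 98.4% ± 0.0577 in Sp3-/- cells. *Ccnd2*, *Ccne1* and *Cdk4* led their families in all 3 genotypes. The share of *Ccnd3* depended on the length used, and was 7.38% of reads in WT cells without division by length.

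**Figure D4:**
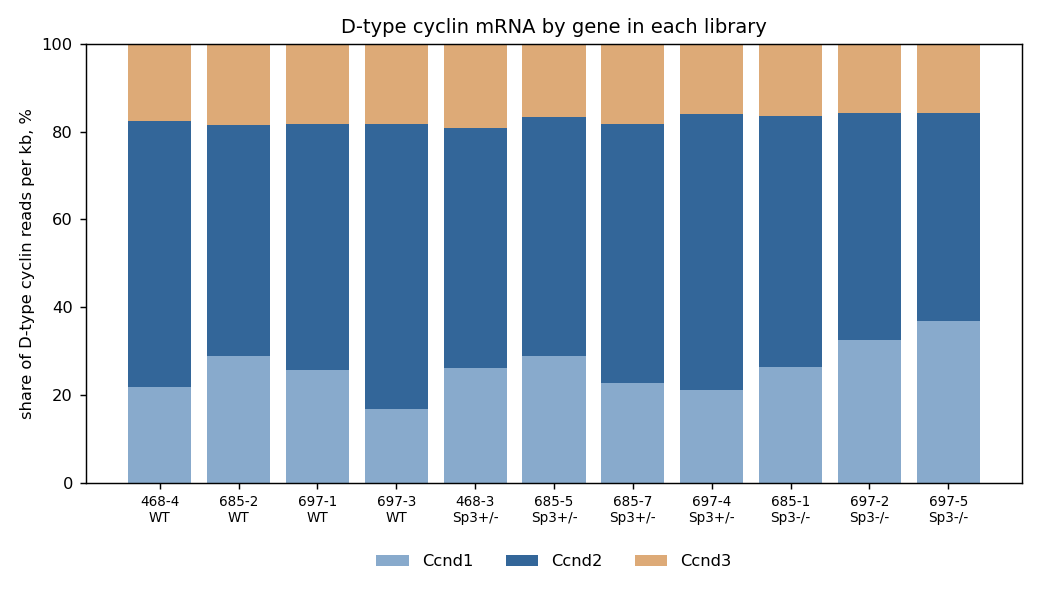
Share (y axis, percent of CPM per kb of transcript) of Ccnd1, Ccnd2 and Ccnd3 in the D-type cyclin mRNA of each library (x axis, with its genotype). Ccnd2 takes the largest part of every bar, and Ccnd1 takes 16.8% to 28.9% in WT and 26.3% to 36.8% in Sp3-/- libraries.

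Other genes of the pathway were read from lists in the comparison of Sp3-/- with WT cells. Of 7 CDK inhibitors 1 was called lower and none higher, and it was *Cdkn2d*, an inhibitor of Cdk4 and Cdk6 (log2 fold change -0.62, SE 0.16, adjusted p = 0.0367). Of 13 genes of the Rb and E2F family 1 was called lower, *E2f1* (-0.43, SE 0.09, adjusted p = 0.0252). In the same family 2 were called higher, *Rbl2*, a relative of the retinoblastoma protein (0.41, adjusted p = 0.0192), and *E2f4*, an E2F that mostly represses (0.37, adjusted p = 0.0369). The directions within that family were mixed, with a median of 0.02. Of 12 genes of the CDK-activating kinase and of G1 cyclin turnover 2 were called lower and 1 higher. They were *Cks1b*, a cofactor in the breakdown of the inhibitor p27 (-0.98, adjusted p = 0.0288), *Fbxo4*, a ubiquitin ligase subunit (-0.53, adjusted p = 0.0406), and *Ambra1*, an adaptor in the breakdown of D-type cyclins (0.35, adjusted p = 0.0343). With the suffix in the fit, *Cdkn2d* (-0.39, adjusted p = 0.1205), *Cks1b* (-0.62, adjusted p = 0.067) and *Fbxo4* (-0.5, adjusted p = 0.075) lost their calls. *E2f1* (-0.5), *Rbl2* (0.49), *E2f4* (0.38) and *Ambra1* (0.39) were called there too.

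None of the 11 other genes of the Myc and Max network was called by edgeR or limma-voom, and DESeq2 called 2 lower and 2 higher. Of the 11, 6 had an unadjusted p below 0.05 in edgeR, and those with the lowest p were *Mycl* (-1.43, adjusted p = 0.0537) and *Mlx* (0.41, adjusted p = 0.057). Of 19 targets of Myc 2 were called lower and none higher, *Ldha*, of lactate production (-0.64, SE 0.15, adjusted p = 0.0285), and *Ncl*, a nucleolar protein (-0.4, SE 0.1, adjusted p = 0.0345). Their median was -0.07, with 12 negative and 7 positive values. The 19 together summed to 1710 to 1910 CPM in Sp3-/- and 2170 to 2400 in WT libraries, without overlap. Abundant genes weigh most in such a sum. The Myc and Max network summed to 598 to 604 CPM in Sp3-/- and 538 to 559 in WT libraries, without overlap in the other direction. With the suffix in the fit *Ldha* (-0.55, adjusted p = 0.0453) and *Ncl* (-0.44, adjusted p = 0.0235) were again called lower. Of 21 mitogen receptors and early response genes 2 were called lower and 4 higher. *Pdgfrb*, a receptor of platelet-derived growth factor and also a mesenchyme marker, fell most (-2.13, SE 0.32, adjusted p = 0.0114). *Spry4* (1.39, adjusted p = 0.0166) and *Dusp6* (1.3, adjusted p = 0.0151), feedback inhibitors of growth factor signalling, rose most. With the suffix in the fit, 1 of the 21 was called lower and 3 higher. *Pdgfrb* (-1.38, adjusted p = 0.0053) and *Spry4* (1.04, adjusted p = 0.041) were among them and *Dusp6* (0.99, adjusted p = 0.0694) was not.

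Genes of the later cell cycle leaned lower with few calls. Of 9 later cyclins, kinases and their regulators none was called by edgeR or limma-voom, although all 9 were lower, with a median of -0.86. DESeq2 called 5 of the 9 lower, and 5 had an unadjusted p below 0.05 in edgeR. Those with the lowest p were *Cdc25c* (-1.71, adjusted p = 0.0598) and *Ccnb2* (-1.69, adjusted p = 0.0827). Of 24 S phase genes 2 were called lower, *Rrm2*, of nucleotide supply (-1.43, adjusted p = 0.0491), and *Gins2*, of the replicative helicase (-1.19, adjusted p = 0.039), with a median of -0.57. Of 16 mitosis genes 1 was called, *Cdc20*, an activator of the anaphase-promoting complex (-2.02, adjusted p = 0.049), and all 16 were lower, with a median of -1.2. The number called depended on the tool, since DESeq2 called 9 of the 16 mitosis genes lower and limma-voom none. Of the S phase genes DESeq2 called 7 lower and 1 higher, and limma-voom none. By suffix, 9 of the 24 S phase genes, 12 of the 16 mitosis genes and 5 of the 9 later cyclins and regulators were called lower. With the suffix in the fit, the median of Sp3-/- against WT was 0.09 for S phase genes and -0.09 for mitosis genes, and none of either list was called by edgeR. In that fit 3 of the S phase genes and none of the mitosis genes had an unadjusted p below 0.05.

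**Figure D5:**
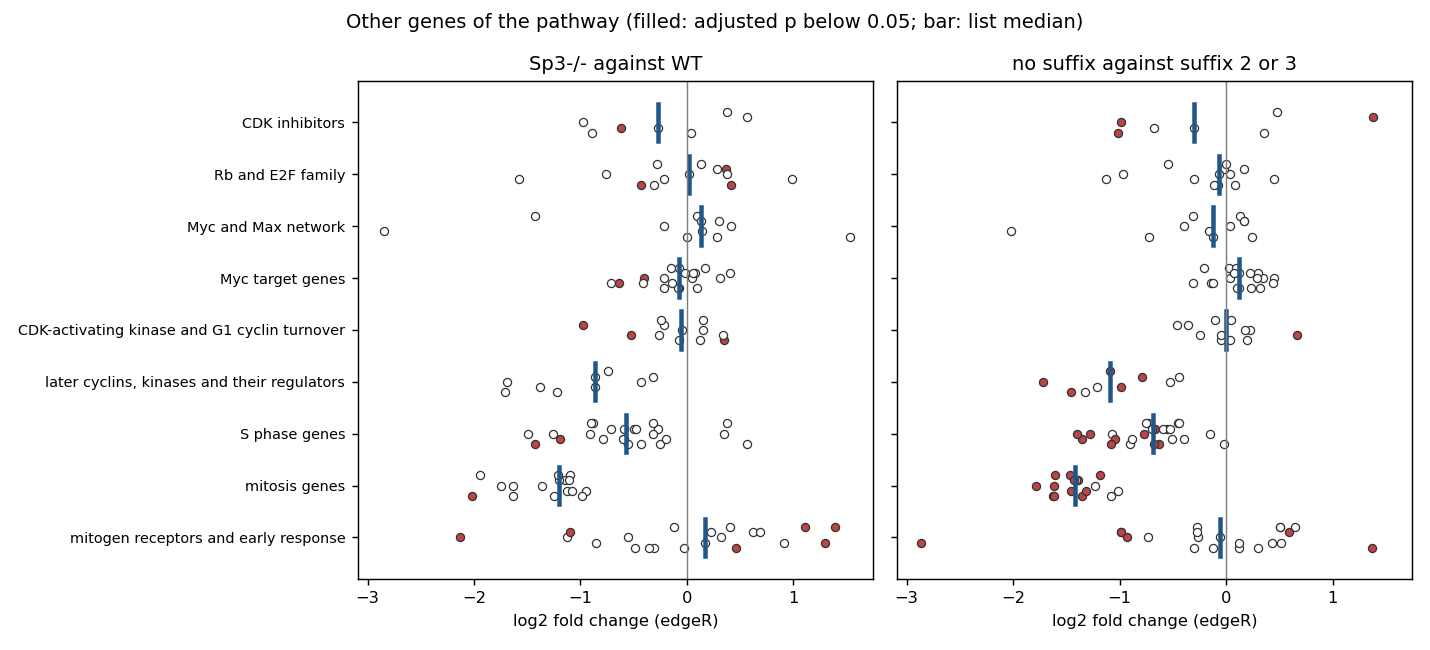
Log2 fold change from edgeR (x axis) of every tested gene of 9 lists (y axis) for Sp3-/- against WT (left) and for libraries without a suffix against those with one (right), filled where the adjusted p was below 0.05, with the list median as a bar. The medians of mitosis genes are -1.2 and -1.42, and those of Myc target genes -0.07 and 0.12.

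Across the 11 libraries the 10 genes fell into patterns that were compared by Pearson's r of log2 CPM, given as a description, since the libraries share genotype and suffix. *Ccnd2* ran with *Ccnd3* (r = 0.91) and with *Myc* (0.87), and *Ccnd3* with *Cdc25a* (0.89). *Ccne1* ran with *Ccne2* (0.84), *Cdc25a* (0.78) and *Cdk4* (0.77), and *Ccne2* with *Cdk2* (0.73). These patterns were not separate, since *Ccnd3* also ran with *Ccne1* (0.77) and *Ccnd2* with *Cdc25a* (0.78). *Myc* and *Cdk2* had an r of -0.22. Of 11195 other genes with a mean above 2 log2 CPM, the closest to *Ccne2* were *Hus1* (0.982) and *Blm* (0.969), both of the DNA damage response. The closest to *Cdk2* were *Nasp*, a histone chaperone (0.963), and *1200014J11Rik* (0.943). *Cdk4* was closest to *Tnrc6c* (0.969), followed by *Mcm7*, of the replicative helicase (0.966). The closest to *Cdc25a* were *Ranbp1* (0.982) and *Eif5a* (0.973), and the closest to *Myc* were *Cct6a*, a chaperonin subunit (0.936), and *Nup62cl* (0.931). *Ccne1* was closest to *Ltbp1* (0.99) and *Il1rl1* (0.986), *Ccnd2* to *Myl12a* (0.974) and *Lmna* (0.966), and *Ccnd3* to *2410004N09Rik* (0.97) and *Map4* (0.969). *Ccnd1* had no close companion, with *Car5b* (0.807) and *Eno2* (0.805) first, and *Cdk6* was closest to *Cldn12* (0.903) and *Tgfb3* (0.9).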

How the data were processed

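Per the labels and the study's methods, the authors made TruSeq libraries from 10 ng of RNA, sequenced 50 bp single end reads, checked them with FastQC 0.10.1, aligned them with STAR 2.4.5a to mm10 and counted reads per gene with htseq-count. The deposited values are raw whole-number counts of reads per gene symbol. Annotation version and strand setting are not given in the sources used here. The 5 tally rows, 38.4% to 40.9% of each library, were left out. Every pair of libraries within a genotype differed by more than sampling noise (lowest chi-square per degree of freedom 15.8).

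Tests by edgeR 4.0.16 in R 4.3.3 covered genes whose CPM exceeded 1 in any library entering the model (TMM, robust quasi-likelihood test, Benjamini-Hochberg adjustment over all genes, called below 0.05). Sp3-/- against WT used 7 libraries and the other fits used all 11. Levels are log2 CPM with a prior count of 2. The 10 genes and all lists were chosen with earlier results of these data known. Named genes were the 10 genes and *Sp3*, up to 3 called genes of largest change per list or 2 of lowest p where none was called, and the 2 genes most correlated with each of the 10. Other genes named as examples of a list were chosen after their values were seen. Transcript lengths are those of GENCODE vM39 and coordinates those of GRCm38.p6. Alternatives used DESeq2 1.42.0 and limma 3.58.1. The pipeline was tested on simulated data.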

Additional observations from a re-analysis of the deposited data

Results flagged for a closer look

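Of 22 groups of 4 libraries tested (the 10 genes and *Sp3* in WT and in Sp3+/- cells), 1 had a library far from the others by Dixon's criterion, and chance gives about 1 in 20. *Ccne1* measured 4.02 log2 CPM in WT 468-4 and 4.87 to 5.01 in the other 3 WT libraries. The gap was 0.859 of the range of the group, above the critical value for 4 libraries. WT 468-4 is the only WT library without a title suffix, and its macrophage markers summed to 3130 CPM against 587 to 861 in the other WT libraries. Its mitosis genes summed to 233 CPM against 537 to 949. The part of either in the low *Ccne1* value was not tested.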

How the results depend on the processing

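The 4 calls of Sp3-/- against WT (*Ccnd2*, *Ccnd3*, *Ccne1*, *Myc*) were made by DESeq2, limma-voom without and with a consensus correlation, library size alone, upper quartile scaling, both other filters, all 11 libraries and the suffix covariate. *Cdc25a* joined them under DESeq2, upper quartile scaling and all 11 libraries. Over all genes the count of 2599 became 4297 with DESeq2, 3977 with all 11 libraries, 1458 with the suffix covariate, 1329 with its 3 levels and 0 among libraries without a suffix, where 0 of the 10 genes were called. It ranged from 282 to 4179 with single libraries left out, and the number of the 10 genes called from 0 to 4. The count of Sp3-/- against Sp3+/- (3607) became 919 with the suffix covariate, 763 with its 3 levels and 0 among libraries without a suffix, with 0 of the 10 genes called. Leaving out single libraries gave 1490 to 4245 genes and 3 to 4 of the 10. *Ccne1* lost its call there with the 3 levels (-0.56, adjusted p = 0.063). With Sp3+/- 697-4 given suffix 2 in the suffix covariate, an alternative chosen after seeing the data, Sp3-/- against WT gave 272 genes and 1 of the 10 (*Ccnd3*), and Sp3-/- against Sp3+/- gave 0 and 0. Sp3+/- against WT gave 0 calls in every setting. The causes were not tested.

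As replicate block, the first number of the library label gave 4031 genes for Sp3-/- against WT, 2956 for Sp3-/- against Sp3+/- and 0 for Sp3+/- against WT. It changed no call among the 10 genes. What the number stands for is not given in the sources used here. Deviations of libraries with the same number and other genotype correlated with r from -0.617 to 0.344 (median 0.0995, 14 pairs). Pairs with another number and other genotype gave -0.524 to 0.708 (median -0.044, 26 pairs). Whether the number marks a shared origin cannot be read from these values, since the deviations also carry the suffix.

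Signs changed only among values that were not called. For Sp3-/- against WT, *Ccnd1* became -0.06 with upper quartile scaling, -0.01 with every gene with a count and -0.02 among libraries without a suffix. *Ccne2* became 0.04, 0.09 and 0.36 and *Cdk2* 0.17, 0.18 and 0.2 with the suffix covariate, its 3 levels and libraries without a suffix, where *Cdk4* became 0.01. For Sp3-/- against Sp3+/-, *Cdk2* became 0.29, 0.28 and 0.23 and *Cdk4* 0.07, 0.11 and 0.03 in these 3 settings. For Sp3+/- against WT, *Ccne1* became 0.02 with limma-voom, without and with a consensus correlation, and 0.26 among libraries without a suffix. With single libraries left out, *Ccnd1* ranged from -0.2 to 0.15 (Sp3-/- against WT), -0.32 to 0.03 (Sp3-/- against Sp3+/-) and -0.01 to 0.25 (Sp3+/- against WT), and *Cdk2* from -0.11 to 0.06 in the comparison with Sp3+/-. In Sp3+/- against WT, *Ccnd2* ranged from -0.09 to 0.08, *Ccnd3* from -0.07 to 0.03, *Ccne1* from -0.23 to 0.05, *Ccne2* from -0.06 to 0.3 and *Cdk6* from -0.02 to 0.17.

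With Sp3+/- 697-4 given suffix 2, *Ccnd1* became -0.02, *Ccne2* 0.38, *Cdk2* 0.21 and *Cdk4* 0.01 for Sp3-/- against WT, *Ccne2* became 0.45, *Cdk2* 0.46 and *Cdk4* 0.2 for Sp3-/- against Sp3+/-, and *Ccne2* became -0.07 for Sp3+/- against WT.

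Shares depended on length. By reads per gene, WT and Sp3-/- shares were 17.9% and 25.1% for *Ccnd1*, 74.7% and 68.3% for *Ccnd2*, 7.38% and 6.65% for *Ccnd3*, 86.4% and 80.5% for *Ccne1* and 92.4% and 91.8% for *Cdk4*. Per kb of all exons, an alternative chosen after seeing the data, they were 29.8% and 39.5% for *Ccnd1*, 6.39% and 5.44% for *Ccnd3*, 90.8% and 86.5% for *Ccne1* and 98.1% and 97.9% for *Cdk4*. The counts of DESeq2 and limma-voom over the other lists were also added after seeing the data. The number of libraries limits the precision of every value, and *Ccne2* had few reads as well (20 in Sp3-/- 697-5).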
